A study of Macaca mulatta with 12 samples.

Results

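Livers of rhesus macaques that would later become very heavy drinkers were compared with livers of macaques that would later become light drinkers, all sampled before the animals were given ethanol. The comparison uses 6 of the 12 libraries of the study: those labelled as baseline biopsies of very heavy drinkers 1 to 3 (VHD) and of light drinkers 1 to 3 (LD). All animals were males of about 4.6 years. After the baseline biopsy every animal drank 0.5, then 1, then 1.5 g ethanol/kg/day, each dose for 30 days, over an induction phase of 90 days that ended with another biopsy. A free-access period of 12 months followed, and its last intake gave the classes, which was 1.5 g ethanol/kg/day in LD and 4.0 g ethanol/kg/day in VHD. The class names therefore describe later intake, and neither group had been treated when the livers compared here were taken. The series was set up around liver networks that go with drinking behaviour, and its design sets VHD against LD livers at this time. Each group holds 3 animals, and the labels name each as a separate animal.

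The liver clears most of a drink. Alcohol dehydrogenases in the cytosol turn ethanol into acetaldehyde, CYP2E1 in the endoplasmic reticulum does the same at high load, aldehyde dehydrogenases make acetate, and acyl-CoA synthetases feed acetate into metabolism. Hepatocytes make up most of the tissue, and Kupffer cells, the resident macrophages, sense gut-derived bacterial products that reach the liver in portal blood. The hepatokine FGF21, which hepatocytes secrete, acts on the brain to lower sweet and alcohol preference in rodents and primates.

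Messenger RNA and miRNA were sequenced together from each biopsy. The 6 baseline libraries held 5970033 to 25060718 gene counts and 127740 to 394409 miRNA counts. Albumin, the main plasma protein made by hepatocytes, was measured at 80236 to 163614 CPM (counts relative to the library's total, scaled by TMM factors), and each library thus carried the defining marker of liver. The 3 LD livers resembled one another, with Spearman correlations across genes of 0.950 to 0.958, while the 3 VHD livers were less alike at 0.887 to 0.919, and correlations between classes ran from 0.897 to 0.966. VHD baseline 3 stood apart on the second principal component of the genes, and VHD baseline 2 lay on the other side of the first from the remaining baseline livers. VHD baseline 3 also carried the fewest miRNA counts per 1000 gene counts, 9.39 against 16.6 to 29.6 in the others. VHD animal 3 further had 16 genes at least 8-fold above, and 7 at least 8-fold below, all 10 libraries of the other animals at both of its biopsies, whereas no other animal had any. For genes and lists led by VHD animal 3, values without its baseline library are given beside the results.

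One gene was called between the classes. It has no symbol in the files and is known by its Ensembl identifier, ENSMMUG00000018314, and maps to bases 11103782 to 11114307 of chromosome 14, plus strand, as 1 transcript (Mmul_8.0.1, the build named in the submitters' processing notes). It was singled out after its values were seen. In the LD livers its level was 184.6, 187.0 and 276.2 CPM, from 1067, 2957 and 3843 counts. In the VHD livers it was 0.104, 3.63 and 0.518 CPM, from 1, 59 and 14 counts. Every LD liver was thus far above every VHD liver, and the lowest LD level was 50.8 times the highest VHD level. The means were 216 ± 52.2 CPM in LD and 1.42 ± 1.93 CPM in VHD (SD, n = 3 each), which the model fitted as a 149-fold lower level in VHD. The log2 difference was -7.22 ± 0.93 (SE), with a 95% interval from -9.22 to -5.22, and edgeR's quasi-likelihood test gave an adjusted p of 0.0463. It was the 1 call among 18373 genes tested (0.00544%), and the percentage called in the higher direction was 0.0.

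The low level in VHD was present again after induction, in biopsies of the same animals. LD livers then held 175, 152 and 171 CPM and VHD livers 0.690, 2.19 and 0.632 CPM, a log2 difference of -7.10 ± 0.93 with an adjusted p of 0.0560. The 2 times share animals and are set side by side as values. A quasi-likelihood test in edgeR of the change in this difference, unpaired by animal, gave an adjusted p of 0.99995. Over both times the lowest of the 6 LD libraries was 41.8 times the highest of the 6 VHD libraries. Of all genes tested, 1 had a gap of at least 8-fold between the classes at baseline, in either direction, with at least 8 CPM in each liver of the higher class, and it was this gene.

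The call lay near the threshold in edgeR's quasi-likelihood test and depended on the tool and the libraries. DESeq2 gave an adjusted p of 1.06e-18, limma-voom 0.000635, and limma-trend 1.08e-05 and 0.00105 with pseudocounts of 1 and 0.1. With edgeR, leaving out LD baseline 1, 2 or 3 gave adjusted p-values of 0.145, 0.146 and 0.188, and leaving out VHD baseline 1 or 3 gave 0.0861 and 0.371, while leaving out VHD baseline 2 gave 0.00171. Without both libraries of VHD animal 3 it was 0.341, and in a fit of the 6 baseline libraries alone it was 1.00. The log2 difference lay between -10.9 and -6.72 in the 19 alternatives run on genes, of which 9 called the gene.

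The genes on either side belong to the PLAAT family, phospholipases and acyltransferases that act on membrane lipids. PLAAT3, whose end lies 54602 bases upstream, had 83.7, 65.7 and 66.0 CPM in LD and 37.6, 44.9 and 64.4 CPM in VHD. Its 3 VHD values lay below its 3 LD values, with a log2 difference of -0.55 ± 0.29 and an interval from -1.17 to 0.07. PLAAT4, whose start lies 2652 bases downstream on the minus strand, had 9.34, 7.40 and 9.05 CPM in LD and 11.3, 4.31 and 7.44 CPM in VHD, a log2 difference of -0.17 ± 0.49. The groups overlapped for PLAAT4. Both neighbours were looked up after the called gene was seen. The files pair the called gene with no name, and whether it shares reads with a related copy was not tested.

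**Figure D1:**
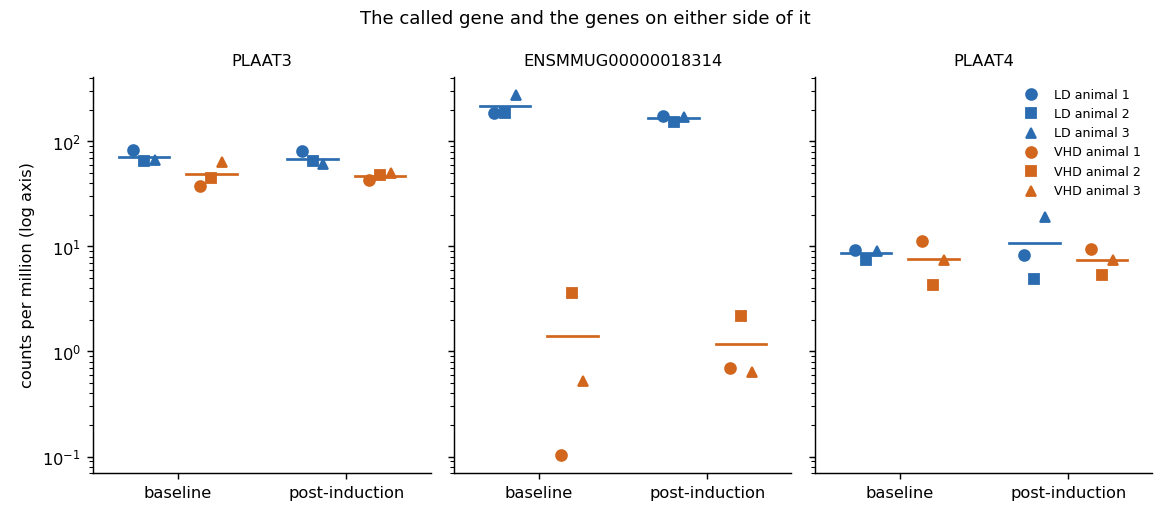
CPM (log axis) of PLAAT3, the called gene ENSMMUG00000018314 and PLAAT4 in the 3 LD (blue) and 3 VHD (orange) animals at baseline and after induction; each point is 1 library, its shape the animal number, and the bar is the mean of 3. The called gene is at 152 CPM or more in every LD library and at 3.63 CPM or less in every VHD library, while the neighbours differ far less.

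Beyond that gene the classes were not separated by the test. The next smallest adjusted p in edgeR's quasi-likelihood test was 1.00 (0.9998). Unadjusted p-values under 0.05 were found for 341 genes (1.86%), of which 263 were higher in VHD (1.43%) and 78 lower (0.425%), where 919 would be expected by chance alone. All 3 VHD livers were above all 3 LD livers for 759 genes (4.13%) and below them for 565 (3.08%). The difference was positive for 56.6% of genes and negative for 43.4%, with a median over all genes of 0.07 on the log2 scale. These shares are the background for the members of each list below. With 3 animals a group, a typical gene had a standard error of 0.50 on the log2 scale. Beyond the called gene, fitted differences above 2-fold did not pass the adjusted threshold either.

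The genes with the smallest unadjusted p in the higher direction, 10 by rule, were mostly set by VHD baseline 3. PRDM1, a transcriptional repressor that drives plasma cell differentiation, maps to bases 104069494 to 104093537 of chromosome 4, minus strand. It was measured at 0.865, 1.14 and 2.01 CPM in LD and at 1.35, 2.28 and 5601 CPM in VHD. VHD animal 3 alone was high, at baseline and again after induction at 2070 CPM, where the other animals reached at most 5.56 CPM at either time. CCDC39, needed for assembly of motile cilia, had 0.692, 0.506 and 0.359 CPM in LD and 0.414, 1.42 and 19.8 CPM in VHD. ZNF385A, a zinc finger protein, had 3.29, 2.59 and 3.16 CPM in LD and 4.56, 3.88 and 109 CPM in VHD. In both the highest value was again that of VHD animal 3. Without VHD baseline 3 the log2 differences were 0.34 for PRDM1, 0.84 for CCDC39 and 0.44 for ZNF385A, against 10.40, 3.87 and 3.71 with it. VHD baseline 3 was the highest library for 9 of the 10 genes, and 3 of the 10 were still at least 2-fold higher without it.

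DYNAP, FMNL2, SCN10A, RECQL5 and ARNT2 followed the same layout with log2 differences of 3.69 ± 1.11, 1.77 ± 0.55, 2.54 ± 0.82, 1.96 ± 0.66 and 3.67 ± 1.23, which were 1.66, 0.90, 0.85, 0.54 and 1.13 without VHD baseline 3. FMNL2 is a formin that builds actin filaments, SCN10A a voltage-gated sodium channel, RECQL5 a DNA helicase and ARNT2 a partner of basic helix-loop-helix PAS factors. Another 2 genes of the 10 were less tied to that animal. ZNF175 had 3.29, 2.15 and 2.37 CPM in LD and 4.66, 5.11 and 6.81 CPM in VHD. PLD1, a phospholipase D that makes phosphatidic acid, had 1.73, 1.27 and 1.22 CPM in LD and 3.62, 6.34 and 2.15 CPM in VHD, with VHD animal 2 the highest. For both, every VHD liver was above every LD liver, as for 7 of the 10 genes in all, against 4.13% of all genes. The 10 were chosen by p in this same comparison, from which such separation follows in part. After induction all 10 differences were positive again, where 58.4% of all genes kept their sign, with 1.24 for DYNAP and 0.33 for PLD1 on the log2 scale, from the same animals.

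The 10 genes of the lower direction were spread more evenly over the animals. PIK3C2G, a class II phosphoinositide 3-kinase that acts in hepatic insulin signalling, maps to bases 19114169 to 19518537 of chromosome 11, plus strand. Its level was 12.6, 28.7 and 21.6 CPM in LD and 8.39, 5.05 and 10.3 CPM in VHD. No VHD liver reached the LD range, and the log2 difference was -1.41 ± 0.41, with -1.23 after induction. FOXO1, a transcription factor that drives genes of glucose production and is kept out of the nucleus by insulin, maps to bases 19866122 to 19977590 of chromosome 17, minus strand. It had 60.4, 142.9 and 133.02 CPM in LD and 48.7, 48.7 and 66.7 CPM in VHD. LD animal 1 overlapped with VHD animal 3, and the log2 difference was -1.04 ± 0.38 at baseline and -0.41 after induction.

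MISP, which orients the mitotic spindle through the actin cortex, had 8.82, 31.4 and 14.5 CPM in LD and 1.04, 1.91 and 5.29 CPM in VHD. LYG2, a goose-type lysozyme, had 4.84, 0.569 and 6.47 CPM in LD and 0.207, 0.615 and 0.037 CPM in VHD. MISP separated the classes and LYG2 did not, since LD animal 2 was as low as VHD animal 2. The nuclear DNA- and RNA-binding protein KIN, the zinc finger protein ZNF584, CCDC85B and TTC13 had log2 differences of -1.28 ± 0.43, -1.18 ± 0.42, -1.37 ± 0.50 and -1.04 ± 0.39. The small nucleolar RNAs U3, which guides ribosomal RNA processing, and SNORA13 had -1.40 ± 0.41 and -1.06 ± 0.38. U3 is a multi-copy RNA and another identifier lies at the same place, so its counts are uncertain. In all, 8 of the 10 genes had every VHD liver below every LD liver, against 3.08% of all genes. Such separation follows in part from choosing the genes by p in this same comparison. Of the 10, 9 were still at least 2-fold lower without VHD baseline 3, and 9 kept their sign after induction. ZNF584 was the exception, with 0.02.

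**Figure D2:**
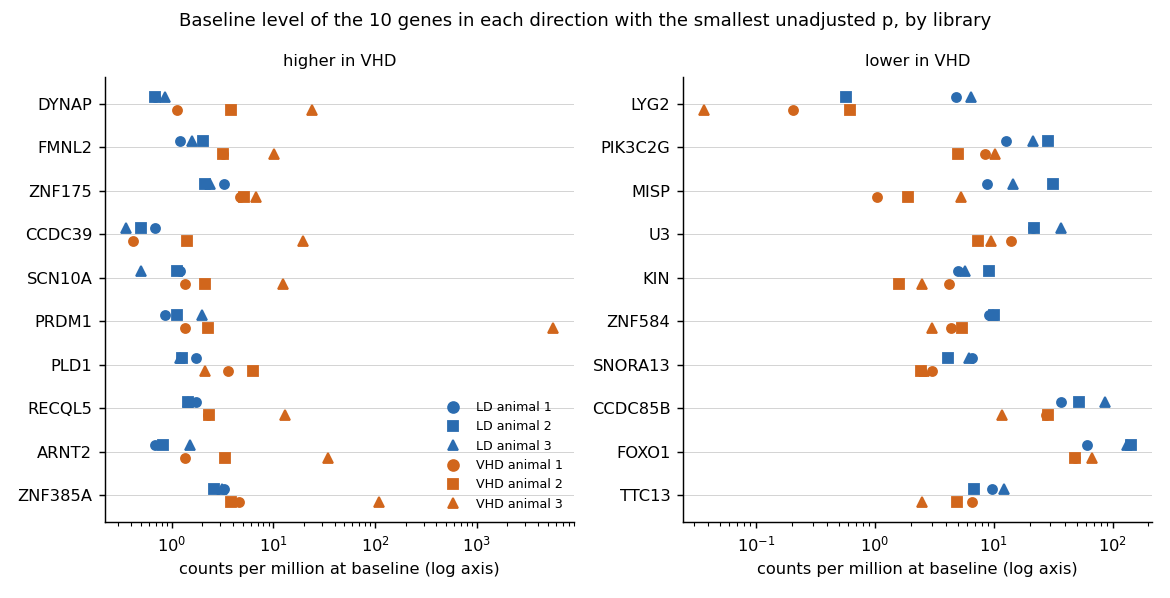
Baseline CPM (log axis) of the 10 genes in each direction that have a symbol, an average of at least 1 on the log2 CPM scale and the smallest unadjusted p; each point is 1 library, coloured by class and shaped by animal number. In the left panel VHD animal 3 (orange triangle) is the highest point in 9 of 10 genes, while in the right panel the 3 VHD points lie together below the LD points in 8 of 10. None of these genes passed the adjusted threshold, and their separation follows in part from choosing them by p in this same comparison.

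Across all 12 libraries, 23 of the 18373 genes tested had every VHD library on one side of every LD library. Of these, 13 were higher and 10 lower in VHD. Each animal is in this count with both of its biopsies, which are not independent, and the number expected by chance was not tested. The genes named here were chosen after their values were seen. Among the higher was LTC4S, the synthase of the inflammatory lipid leukotriene C4, with 1.04, 0.569 and 0.647 CPM in LD and 3.73, 1.48 and 3.07 CPM in VHD at baseline. DPEP1, a membrane dipeptidase that converts leukotriene D4, had 0.173, 0.253 and 0.144 CPM in LD and 0.621, 0.8001 and 0.963 CPM in VHD. Both are low levels that rest on few reads. Among the lower was SPART, which acts in lipid droplet turnover, with 22.7, 24.2 and 22.3 CPM in LD and 15.5, 19.1 and 12.6 CPM in VHD. Its log2 difference was -0.55 ± 0.30 at baseline and -0.61 after induction. U3 and ENSMMUG00000018314 are also in the lower group.

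Markers of blood and immune cells had mostly higher levels in the VHD livers at baseline, without a called gene. All 12 tested neutrophil markers, all 12 macrophage and Kupffer cell markers and all 10 T and NK cell markers had a positive difference, against 56.6% of all genes. Their median log2 differences were 0.74, 0.50 and 0.54, against 0.07 over all genes. After induction the same lists had medians of -0.09, 0.00 and -0.14, with 5, 6 and 3 positive members. The members of a list come from the same livers and are not independent of one another. In tissue RNA, a difference in the number of cells of a type and a difference in RNA per cell cannot be told apart.

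S100A8, a calcium-binding alarmin of neutrophils and monocytes, maps to bases 127984438 to 127987070 of chromosome 1, minus strand. It was measured at 1.38, 4.11 and 3.02 CPM in LD and 4.14, 5.72 and 15.9 CPM in VHD. VHD animal 3 was clearly above the rest, and VHD animal 1 was level with LD animal 2. The log2 difference was 1.57 ± 0.54, with an interval from 0.40 to 2.74. It was 0.69 without VHD baseline 3 and -0.46 after induction. The chemokine receptors CXCR1 and CXCR2 had log2 differences of 0.88 ± 0.52 and 1.23 ± 0.70. Of the 12 neutrophil markers, 3 had every VHD liver above every LD liver, against 4.13% of all genes. Their summed level was 22.9 to 30.1 CPM in LD and 41.9 to 54.1 CPM in VHD.

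CD163, the haemoglobin scavenger receptor of Kupffer cells, maps to bases 7829964 to 7855893 of chromosome 11, minus strand. It had 16.8, 10.1 and 14.01 CPM in LD and 22.8, 24.6 and 21.1 CPM in VHD. The VHD values lay close together above all LD values, with a log2 difference of 0.75 ± 0.31 and an interval from 0.07 to 1.42. CSF1R, the growth factor receptor of macrophages, had 5.36, 3.35 and 5.25 CPM in LD and 7.66, 7.63 and 7.66 CPM in VHD. After induction the differences of CD163 and CSF1R were -0.10 and -0.41. CD5L, a secreted macrophage protein, and MRC1, the mannose receptor, had 0.81 ± 0.40 and 0.50 ± 0.34 at baseline, with overlapping groups. The summed level of the list overlapped, from 577 to 785 CPM in LD and 560 to 1270.3 CPM in VHD.

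NKG7, a granule protein of cytotoxic lymphocytes, had 0.519, 0.506 and 1.01 CPM in LD and 2.17, 1.54 and 1.30 CPM in VHD. GZMA, a granule protease of the same cells, had 0.173, 0.443 and 0.575 CPM in LD and 0.518, 1.91 and 1.33 CPM in VHD. The classes overlapped for GZMA but not for NKG7, and both rest on a few reads in the shallowest library. The summed level of the T and NK list was 11.8 to 19.6 CPM in LD and 17.9 to 29.5 CPM in VHD. CLEC1B, an endothelial and platelet lectin receptor, had 2.94, 2.34 and 2.30 CPM in LD and 4.45, 4.62 and 9.96 CPM in VHD, a difference of 1.35 that was 0.80 without VHD baseline 3. VWF, the von Willebrand factor of larger vessels, had the reverse layout, led by LD animal 1 at 59.4 CPM against 8.48 to 19.5 CPM in the other 5 livers.

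LD animal 2 was the lowest of the 6 in all 3 lists. Without it the median was 0.36 for the macrophage list and 0.31 for the T and NK list, but 0.77 for the neutrophil list, whose medians ran from 0.62 to 0.88 when any 1 library was left out. Without VHD baseline 2 the T and NK median was 0.34. Without VHD baseline 2 and 3 together, the medians were -0.09 for neutrophil, 0.24 for macrophage and 0.37 for T and NK markers. B and plasma cell markers had a median of 0.19 with 6 of 9 positive, and erythrocyte markers 0.21 with 7 of 8 positive. Without VHD baseline 3 these medians were -0.22 and -0.14, with 4 of 9 and 3 of 8 positive. VHD animal 1 was the lowest of the 6 livers for both lists. Stellate cell and fibroblast markers had -0.08 with 6 of 17 positive, and cholangiocyte markers 0.02 with 6 of 10 positive. Mesothelial markers varied most between livers of a class, with a summed level of 14.4 to 430.8 CPM in LD and 32.6 to 184 CPM in VHD. No marker tested was at 0 in all 6 livers, and the part of these cell types in the other differences was not tested.

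**Figure D3:**
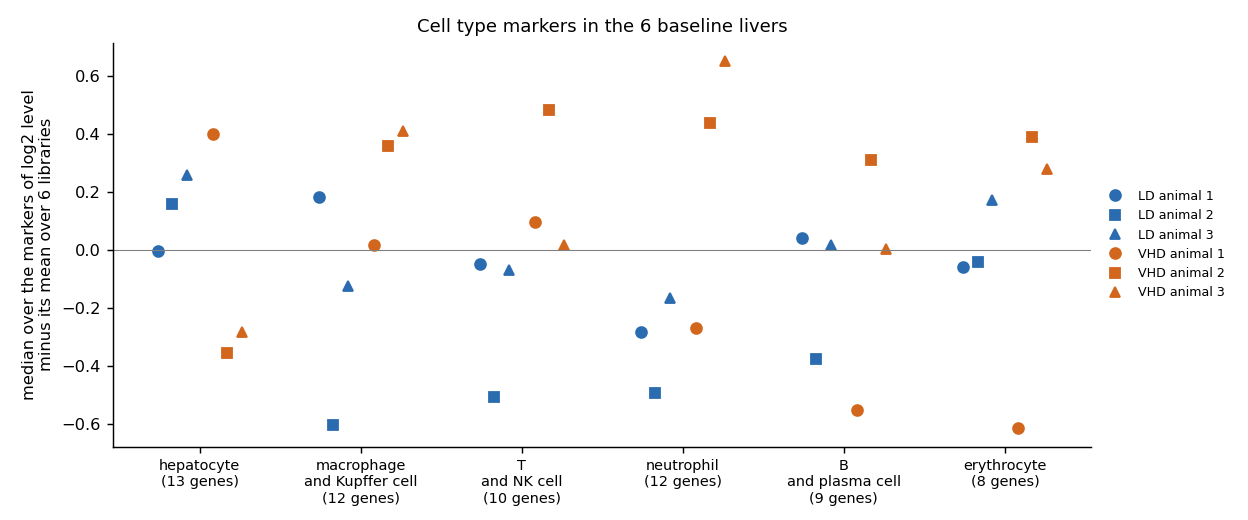
Level of 6 cell type marker lists in each of the 6 baseline livers, as the median over the tested markers of the log2 level minus that marker's mean over the 6 livers (vertical axis, log2 units); blue is LD, orange VHD, and the shape is the animal number. VHD animals 2 and 3 are high for macrophage and neutrophil markers and low for hepatocyte markers, and LD animal 2 is the lowest for macrophage, T and NK, and neutrophil markers.

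Genes of inflammatory signalling were also mostly higher in the VHD livers, but in another liver than the neutrophil markers. The median deviation of the list from its mean over the 6 livers was 0.75, 0.13 and -0.27 on the log2 scale in VHD animals 1, 2 and 3, where that of the neutrophil markers was -0.27, 0.44 and 0.65. The list of inflammatory cytokines and NF-kappaB targets had 11 of 15 tested members positive at baseline, with a median of 0.48, and 2 of 15 after induction, with a median of -0.27. RELB, a subunit of the non-canonical NF-kappaB dimer, maps to bases 40311816 to 40355005 of chromosome 19, plus strand. Its level was 2.25, 3.61 and 2.23 CPM in LD and 9.73, 5.66 and 4.07 CPM in VHD. ICAM1, the adhesion molecule that arrests leukocytes on endothelium, had 0.519, 0.696 and 1.01 CPM in LD and 2.59, 2.15 and 2.00 CPM in VHD. For both genes all VHD livers were above all LD livers, with log2 differences of 1.24 ± 0.45 and 1.55 ± 0.59. They were the members of the list that separated the classes, 2 of 15 against 4.13% of all genes. After induction the differences were 0.57 for RELB and -0.11 for ICAM1.

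TNFAIP3, which encodes the NF-kappaB inhibitor A20, and the subunit NFKB1 had 0.90 ± 0.52 and 0.56 ± 0.33 at baseline, with overlapping groups. VHD animal 1 was the highest for RELB, ICAM1 and TNFAIP3. Without it the list median was 0.23, and without VHD baseline 3 it was 0.79. The neutrophil list moved the other way, with a median of 0.88 without VHD baseline 1.

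Interferon-stimulated genes, the antiviral program, had 22 of 31 members positive and a median of 0.17. BST2, which tethers budding virus, had 45.0, 33.7 and 41.8 CPM in LD and 52.0, 51.5 and 63.1 CPM in VHD. IFI6 had 26.0, 24.0 and 24.9 CPM in LD and 28.9, 44.9 and 38.8 CPM in VHD. With OAS1 and PARP14 they made 4 of 31 members with all VHD livers above all LD livers, against 4.13% of all genes. The differences were 0.88 ± 0.51 for OAS1 and 0.47 ± 0.30 for BST2. Without VHD baseline 3 the list median was 0.08, with 18 of 31 members positive. After induction the list median was 0.05, with 21 of 31 members positive, and the difference of BST2 was 0.00. Antigen presentation genes had a median of 0.33 with 10 of 13 positive. PSMB8, a subunit of the immunoproteasome, had 6.58, 9.93 and 5.89 CPM in LD and 10.04, 8.68 and 75.6 CPM in VHD, so that its difference of 2.07 ± 0.72 was led by VHD animal 3 and was 0.26 without VHD baseline 3. Many MHC genes of the macaque are near-identical copies, and their counts are uncertain.

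Hepatocyte products leaned the other way in the summary and were set by the same livers. Hepatocyte markers had a median of -0.20 with 3 of 13 positive, acute phase proteins -0.31 with 6 of 19, coagulation and complement proteins -0.11 with 6 of 33, and apolipoproteins -0.16 with 4 of 16. Albumin (ALB) was measured at 147636, 162646 and 129020 CPM in LD and at 163614, 88636 and 80236 CPM in VHD. VHD animal 1 was the highest of the 6 and VHD animals 2 and 3 the lowest, and the log2 difference of -0.40 ± 0.39 was within the error. The fibrinogen chain FGG had 15611, 19978 and 18930 CPM in LD and 18558, 12636 and 8595 CPM in VHD. VHD animals 2 and 3 were again the lowest, while VHD animal 1 lay within the LD range. Without VHD baseline 2 and 3 the medians were 0.23 for hepatocyte markers, 0.09 for acute phase proteins and 0.36 for coagulation and complement proteins. The acute phase median was also 0.00 without LD animal 3. Respiratory chain subunits had a median of -0.11 with 12 of 39 positive and became 0.19 without those VHD libraries.

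**Figure D4:**
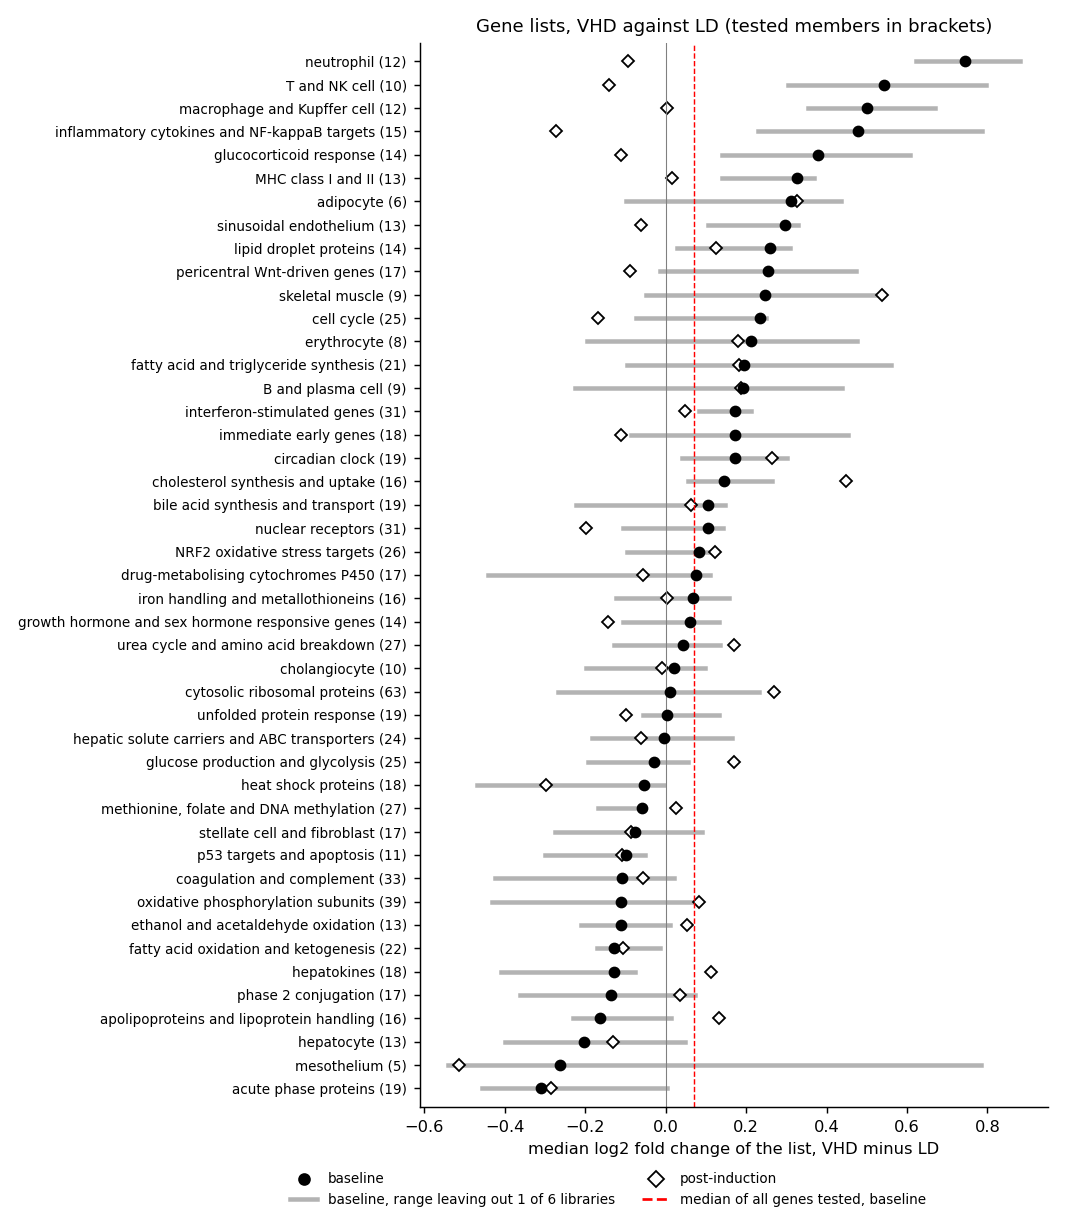
Median log2 fold change, VHD minus LD, of the pathway and marker lists (tested members in brackets): filled circles at baseline, grey bars the range when 1 of the 6 baseline libraries is left out, open diamonds after induction, and the dashed line the median of all genes tested. The neutrophil, T and NK, macrophage and NF-kappaB lists lie farthest right at baseline, with a median of 0.48 or more, and their diamonds lie between -0.27 and 0.00.

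The enzymes that clear ethanol did not separate the classes. Of the 16 names in this list 13 were tested, 5 had a positive difference, none passed the test and none had groups that did not overlap. Over all genes tested, such non-overlap was also uncommon, at 4.13% higher and 3.08% lower in VHD. Its absence among 13 genes is therefore not particular to this list. ADH4, an alcohol dehydrogenase of the liver, had 694, 1081 and 1737 CPM in LD and 1134, 999.6 and 518 CPM in VHD. LD animal 3 was the highest and VHD animal 3 the lowest, and the log2 difference of -0.41 had a 95% interval from -1.35 to 0.54. CYP2E1 had 2106, 2377 and 2277 CPM in LD and 3552, 3243 and 1228 CPM in VHD. VHD animals 1 and 2 were above and VHD animal 3 below the whole LD range, and the difference of 0.25 had an interval from -0.59 to 1.08. ALDH9A1 and ACSS2, the cytosolic acetyl-CoA synthetase, had 0.61 ± 0.43 and 1.03 ± 0.77. The intervals of ADH4 and CYP2E1 reach past 2-fold in at least one direction, so differences of that size in that direction were not excluded with these animals. ALDH2 was not matched by symbol and is not analysed here.

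FGF21 was measured at 2.94, 4.74 and 0.934 CPM in LD and at 10.9, 2.28 and 6.04 CPM in VHD. The groups overlapped, and the difference was 1.14 ± 0.69, with an interval from -0.35 to 2.62. CYP7A1, which opens the classical route from cholesterol to bile acids, had 15.6, 9.05 and 12.5 CPM in LD and 27.3, 48.4 and 2.15 CPM in VHD. VHD held both the highest and the lowest of the 6 livers for this gene, and the difference of 1.07 ± 0.88 was followed by -2.09 after induction. Among drug metabolism genes, UGT1A1, which conjugates bilirubin, had 2611, 2993 and 2702 CPM in LD and 2581, 1673 and 1242 CPM in VHD. GSTP1, a glutathione transferase of bile duct and immune cells, had 75.3, 16.1 and 19.2 CPM in LD and 88.7, 108 and 82.4 CPM in VHD. Neither passed the test, although neither overlapped between the classes, with differences of -0.60 ± 0.39 and 1.35 ± 0.86.

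Lipid synthesis and storage genes had slightly positive medians, which fell when VHD baseline 3 alone was left out. The cholesterol list had 12 of 16 members positive with a median of 0.15, the lipid droplet list 12 of 14 with 0.26, and the fatty acid synthesis list 13 of 21 with 0.20. DHCR7, the last step of cholesterol synthesis, had 21.6, 26.6 and 19.8 CPM in LD and 31.7, 27.7 and 96.6 CPM in VHD. SREBF1, the master regulator of lipogenesis, had 14.9, 43.1 and 10.6 CPM in LD and 47.8, 13.9 and 83.4 CPM in VHD. VHD animal 3 was the highest in both, and the differences of 1.20 and 1.08 were 0.33 and 0.39 without it. G0S2, an inhibitor of the lipase ATGL, had 30.6, 22.1 and 7.47 CPM in LD and 59.2, 10.5 and 87.5 CPM in VHD, a difference of 1.39 ± 0.72 that was 0.79 without VHD baseline 3. HSD17B13, a lipid droplet enzyme, had 262, 271 and 251 CPM in LD and 336.8, 334 and 283 CPM in VHD. Its values separated the classes in a narrow range, at 0.28 ± 0.28, and its difference after induction was 0.64. Without VHD baseline 3 the median was 0.06 for the cholesterol list and 0.03 for the lipid droplet list. It was -0.10 for the fatty acid synthesis list, with 8 of 21 members positive. Without VHD baseline 2 and 3 together, the medians were 0.21 for the cholesterol list, 0.35 for the lipid droplet list and 0.01 for the fatty acid synthesis list. Fatty acid oxidation genes had 9 of 22 positive and a median of -0.13.

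Among genes of zonation, the clock and the stress hormones, single members stood out within lists that had no called gene. RHBG, an ammonium transporter of the hepatocytes around the central vein, had 1.38, 3.42 and 1.37 CPM in LD and 13.1, 4.55 and 6.22 CPM in VHD. TBX3, a Wnt target of the same zone, had 1.05 ± 0.56 on the log2 scale. The pericentral list had 14 of 17 members positive and a median of 0.25, which was -0.01 without VHD baseline 1, the highest liver for both genes. PER2, a repressor of the circadian clock, had 21.6, 22.1 and 15.2 CPM in LD and 12.6, 11.9 and 9.26 CPM in VHD. All VHD livers were below all LD livers, and the difference was -0.80 ± 0.36 at baseline and -0.12 after induction. The hour of the biopsies is not given in the sources used here. The clock list as a whole had 13 of 19 positive and a median of 0.17.

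Glucocorticoid response genes had 11 of 14 positive and a median of 0.38, which was 0.14 without LD baseline 1, 0.17 without VHD baseline 2 and 0.61 without LD baseline 3. The transcription factors CEBPB and CEBPD, which rise in the acute phase, had 0.93 ± 0.52 and 0.74 ± 0.58. Their levels were highest in VHD animals 1 and 3, and VHD animal 2 lay within the LD range for CEBPB. Of the immediate early genes, KLF4 had 3.29, 2.53 and 2.44 CPM in LD and 5.80, 4.25 and 5.29 CPM in VHD, with no overlap. FOS, a subunit of AP-1, had 24.4, 26.9 and 92.2 CPM in LD and 33.96, 15.4 and 22.8 CPM in VHD, with LD animal 3 above the rest. XPC, a DNA damage sensor, had 9.34, 9.05 and 4.89 CPM in LD and 14.2, 11.6 and 11.7 CPM in VHD, a difference of 0.69 ± 0.31. The p53 list it belongs to had 4 of 11 positive and a median of -0.10, in the other direction.

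Of the remaining lists, sinusoidal endothelium had 10 of 13 positive with a median of 0.30, adipocyte markers 4 of 6 with 0.31, skeletal muscle markers 7 of 9 with 0.25 and cell cycle genes 15 of 25 with 0.23. Hepatokines had 6 of 18 positive with -0.13 and phase 2 conjugation 8 of 17 with -0.14. Without VHD baseline 3 the median was 0.11 for sinusoidal endothelium and -0.10 for adipocyte markers. It was then -0.05 for skeletal muscle markers and -0.07 for cell cycle genes. Cytosolic ribosomal proteins had 33 of 63 positive with a median of 0.01, the unfolded protein response 10 of 19 with 0.00, urea cycle and amino acid genes 15 of 27 with 0.04, NRF2 targets 16 of 26 with 0.08 and nuclear receptors 20 of 31 with 0.10. None of the 33 pathway lists and 12 marker lists held a gene with an adjusted p under 0.05 in edgeR's quasi-likelihood test.

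No miRNA was called among 427 tested (0.0%) in edgeR's quasi-likelihood test, where 2 had an unadjusted p under 0.05 (0.468%), and DESeq2 and limma called 0 as well. All 3 VHD livers were above all 3 LD livers for 12 miRNAs (2.81%) and below them for 11 (2.58%). miR-122, a miRNA of hepatocytes, took a large share of each library. As miR-122a-5p it made up 63.4%, 66.7% and 62.8% of miRNA counts in LD and 69.2%, 56.2% and 34.9% in VHD. VHD animal 3 was far below the other livers, with a Wilson 95% interval of 34.7% to 35.1% for counting error alone. The log2 difference was -0.36 with an interval from -2.29 to 1.56, and 0.085 without VHD baseline 3. Shares are given here because scaled CPM of so dominant an RNA is hard to read.

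VHD baseline 3 had another makeup of its miRNAs than the remaining 5 livers. miR-7172-3p made up 12.1% of its miRNA counts, against 0.953% to 1.74% in the others, and miR-125b-5p 6.49% against 1.14% to 3.08%. miR-21-5p, an injury-linked miRNA, was 0.634% there, against 2.21% to 7.43% in the others. let-7f-5p, of the let-7 family that holds back growth genes, was 0.643% against 1.06% to 3.42%. One library after induction, VHD post-induction 2, had a like makeup, with 10.1% of miR-7172-3p, 0.192% of miR-21-5p and 18.7% of miR-122a-5p. These 2 libraries belong to different animals by their labels. Their gene libraries also lay together on the second principal component.

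**Figure D5:**
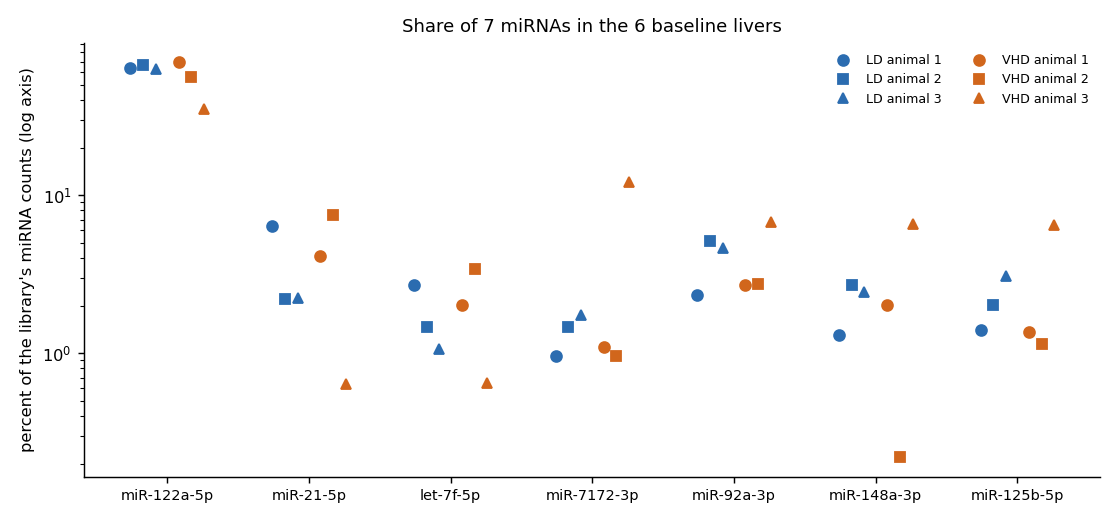
Percent of the miRNA counts of each baseline library (log axis) taken by 7 miRNAs; blue is LD, orange VHD, and the shape is the animal number. VHD animal 3 (orange triangle) is the lowest for miR-122a-5p, miR-21-5p and let-7f-5p and the highest for miR-7172-3p, miR-92a-3p, miR-148a-3p and miR-125b-5p.

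The 2 miRNAs with the smallest unadjusted p were higher in VHD. miR-7197-3p had 0, 4.25 and 0 CPM in LD and 20.5, 25.2 and 25.2 CPM in VHD, a difference of 3.63 ± 1.50 that rests on few reads and was -0.01 after induction. miR-29c-5p, from a family that targets collagen transcripts, had 68.9, 33.96 and 55.3 CPM in LD and 68.3, 189.6 and 142.03 CPM in VHD, a difference of 1.38 ± 0.63. VHD animal 1 lay within the LD range for miR-29c-5p. The next higher by rule, miR-1233, miR-4743, miR-431 and miR-940, had differences between 1.42 and 1.68 with overlapping groups. For miR-1233, miR-4743 and miR-940 the highest library was VHD baseline 3, without which the differences were 0.72, 1.34 and -0.0193.

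In the lower direction miR-323b-3p, of the imprinted DLK1-DIO3 cluster, had 59.0, 29.7 and 72.5 CPM in LD and 27.3, 23.2 and 2.29 CPM in VHD. miR-320c had 29.5, 21.2 and 38.0 CPM in LD and 6.83, 17.4 and 9.16 CPM in VHD. All VHD livers were below all LD livers for both, at -1.68 ± 1.03 and -1.30 ± 0.82, and both differences were positive after induction, at 1.46 and 0.48, where 55.0% of all miRNAs kept their sign. miR-3059-3p and miR-23b-5p also separated the classes, while miR-493-5p and miR-30b-5p did not, with differences between -1.26 and -0.90. Of the panel miRNAs, miR-34a-5p, a p53 target, had 0.65 ± 0.84, miR-21-5p -0.02 ± 1.12 and the myeloid miR-223 0.03 ± 0.91. Leukocyte miRNAs had 7 of 9 positive with a median of 0.25, let-7 members 2 of 12 with -0.29, and the imprinted cluster 18 of 40 with -0.02, against 56.9% positive and a median of 0.09 over all miRNAs.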

How the data were processed

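Liver mRNA and miRNA were sequenced as 1 combined library per biopsy with a NEXTFLEX Combo-Seq kit, from 500 ng RNA with RIN above 8.5, as single 76 base reads on a NovaSeq system, per the labels' protocols. The authors deposited expected counts per transcript and per mature miRNA, which are not all whole numbers. They also deposited normalized values of unstated scale, held here as signal, which are constant multiples of the deposited counts within each library. Partek, Bowtie, BWA and Mmul_8.0.1 are named in the submitters' processing notes, without roles or versions. Whether counting used strand is not given in the sources used here. Every transcript listed has a total of at least 10, and identifiers without a symbol (8522 of 23993) take 16.5% to 17.6% of the baseline counts.

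Transcript values were summed per Ensembl identifier and rounded. The main test was edgeR 4.0.16 (R 4.3.3) with TMM factors, filterByExpr, a robust quasi-likelihood fit of 4 group means over all 12 libraries and Benjamini-Hochberg adjustment over all features, threshold 0.05, two-sided. That fit took the 2 biopsies of an animal as separate libraries, while limma-voom took the animal as a random effect. CPM used TMM factors, and start or end coordinates in the files may differ by 1 base from a browser's. DESeq2 1.42.0, limma 3.58.1, other factors and filters, a replicate block and left-out libraries were alternatives. The fits were tested on simulated data. To be named, genes with a symbol had to average 1 or more on the log2 CPM scale (miRNAs 3). Called genes came first, filled to 10 (miRNAs 6) per direction by smallest unadjusted p, plus up to 4 members per list by smallest p and a panel, of which the text prints a part. The comparison, lists and rules were chosen with earlier results of these data known. The DNA methylation and protein data that the design text mentions were not analysed here. Intervals of shares cover counting error only. 1 marker gene named by the rule is not reported here.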

Additional observations from a re-analysis of the deposited data

How the results depend on the processing

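The count of called genes was 1 in the main analysis. It was 0 with the 6 baseline libraries alone, with VHD baseline 3 and VHD post-induction 2 left out, with both libraries of VHD animal 3 left out (chosen after seeing the data), with a filter of 1 CPM in 3 libraries, with upper-quartile factors and with transcripts in place of genes. Leaving out 1 baseline library gave 0 to 1. The count of called miRNAs was 0 under each alternative run. The replicate block gave 1 gene and 0 miRNAs. The labels state no pairing of animals between the 2 classes. Deviations of same-numbered libraries from their class means had correlations of 0.050, -0.263 and 0.110 at baseline. After induction they were 0.033, -0.314 and 0.405. With so few libraries these values cannot decide whether the numbers pair animals.

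Of 1547 values of single genes and miRNAs under the alternatives, 1508 kept direction and side of the threshold, 10 lost the call and 29 turned sign, over 10 genes and miRNAs. Without VHD baseline 2 and 3 the log2 differences were 0.16 for ALB, 0.028 for FGG, -0.035 for PRDM1, -0.26 for CCDC39, 0.60 for miR-122a-5p, 0.66 for miR-21-5p and -0.33 for miR-4743. Without VHD baseline 3 and VHD post-induction 2 they were 0.11 for miR-122a-5p, 0.59 for miR-21-5p and -0.00817 for miR-940, and without VHD animal 3 they were 0.022, 0.57 and -0.072. For miR-21-5p, DESeq2 and RLE factors gave 0.016, upper-quartile factors 0.11, the filter of 1 CPM 0.11 and no filter 0.12. For miR-223, limma-trend gave -0.017 and -0.012 with pseudocounts of 0.1 and 1.
Leaving out 1 baseline library gave -0.014 to 0.54 for CYP2E1, -1.38 to 0.085 for miR-122a-5p, -0.50 to 0.76 for miR-21-5p, -0.64 to 0.84 for miR-223 and -0.0193 to 1.96 for miR-940.

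Among the alternatives run, the median of all genes moved by over 0.1 when VHD baseline 2 and 3 were left out, to -0.05. That of all miRNAs then moved to -0.17, and to -0.05 without VHD animal 3, -0.04 with limma-voom, -0.02 with limma-trend and -0.03 without LD baseline 3. Of 1064 list medians, 104 moved by more than their spread. The causes were not tested. With 3 animals a group, the median standard error was 0.50 for genes and 0.77 for miRNAs on the log2 scale. Most differences under 2-fold were therefore not detectable, and larger ones could also be missed. In the main analysis, fitted differences far above 2-fold, such as the log2 difference of 3.69 for DYNAP, did not pass the adjusted threshold.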
